A study of Mus musculus with 8 samples.

Results

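The 10 genes described here act in the survival and death of the oocyte in its primordial follicle, and they were chosen by name among the 26586 gene symbols of the count table. They were the checkpoint kinase gene Chek2, the p53 relative Trp63 (p63), the survival genes Bcl2, Bcl2l1 and Mcl1, the effectors Bax and Bak1, and the BH3-only genes Bbc3, Pmaip1 and Bcl2l11. RNA-Seq was performed on ovarian primordial follicles collected on postnatal day 3 from mice of the C57Bl/6 x CBA strain. The 4 mito-supplemented samples came from the third generation bred from founders. The founders grew from oocytes of F1 mice (C57BL6/J/MARP × CBA/MARP), and these oocytes had received, at sperm injection, mitochondria isolated from egg precursor cells of the same strain. The 4 control samples came from control mice without supplementation, and the study does not say for the RNA-Seq how these were bred. Its controls for litter size were colony mice from natural matings. If the RNA-Seq controls were too, the added mitochondria cannot be told apart from the handling of the embryos. That handling was the sperm injection, culture, vitrification and transfer of the embryos that became the founders. The comparison asked which transcripts differed between the primordial follicles of these lines. Follicles were picked by pipette after enzymatic digestion of the ovary, and no cell sort was described, so a sample could hold other ovarian cells. The labels call the samples biological replicates and do not give their litters, so the p values measure the spread between these samples. The codes in the labels begin alike for control replicates 1 and 2, for control replicates 3 and 4, and for mito-supplemented replicates 1 to 3, and what that beginning stands for is not given. If samples that share it also share a source, n = 4 overstates how many are independent.

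Total counts were 17658559, 13917412, 18219362 and 10370045 in control replicates 1 to 4 against 19760763, 13370911, 16116434 and 13276462 in mito-supplemented replicates 1 to 4. In control replicate 4, 75.3% of the counts fell on the 4 ribosomal RNA genes Rnr1, Rnr2, Rn45s and Rn18s, against 20.2% to 45.6% in the other 7 libraries, which left it 2559876 counts on all other genes. Rnr1 and Rnr2 alone held 74.0% of the counts in control replicate 4 and 14.9% to 44.3% in the other 7. Levels are given as CPM, counts scaled to the library size after TMM normalization, in which 1 count was worth 0.197 CPM in control replicate 4 and between 0.0410 and 0.0793 CPM in the others.

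Oocytes in primordial follicles are arrested in meiosis and cannot be replaced, and they carry a strict damage checkpoint. The kinase encoded by Chek2 acts above the oocyte form of p63, the TAp63 alpha protein, which once active switches on the BH3-only genes Bbc3 (PUMA) and Pmaip1 (NOXA). BH3-only proteins bind the survival proteins BCL2, BCL-xL (Bcl2l1) and MCL1 or act on BAX and BAK directly, and active BAX and BAK open the outer mitochondrial membrane, which frees cytochrome c to start the caspases.

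The BCL2 proteins share a short helix, the BH3 motif, through which they bind each other. Its core begins with leucine, and after 3 variable residues comes glycine or alanine followed by aspartate. The codons of this core were read from the longest complete coding sequence of each gene in GENCODE M21, 5′ to 3′, and are shown because they are what the survival, effector and BH3-only genes have in common. Capitals mark the leucine codon and the glycine or alanine and aspartate codons.
Bcl2: CTCcgccgggctGGGGAT
Bcl2l1: CTGagagaggcaGGCGAT
Mcl1: CTGcggcgcgtgGGCGAC
Bax: CTCcggcgaattGGAGAT
Bak1: CTTgctctcatcGGAGAT
Bbc3: CTGcggcggatgGCGGAC
Bcl2l11: CTGcggcggatcGGAGAC
Each of these 7 coding sequences held 1 match, at residues 94 to 99 of 236 in Bcl2, 90 to 95 of 233 in Bcl2l1, 194 to 199 of 331 in Mcl1, 63 to 68 of 192 in Bax, 76 to 81 of 209 in Bak1, 141 to 146 of 193 in Bbc3 and 150 to 155 of 196 in Bcl2l11. Bbc3 was the gene of this set with alanine in place of glycine. The coding sequences of Chek2 and Trp63, which lie outside the family, held 0 matches, and Pmaip1 was not searched.

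All 10 genes were among the 13873 that passed edgeR's default expression filter. A gene was called when its log2 fold change was 1 or more in size and its adjusted p was below 0.05, and 0 of the 10 were called between mito-supplemented and control follicles by edgeR's quasi-likelihood test. Over the 13873 genes tested that test called 0 genes (0%) and the likelihood ratio test, which the study used, called 58 (0.418%) and again 0 of the 10. DESeq2 called 141 of all genes tested (1.02%) and limma-voom 0 (0%), and both called 0 of the 10. Mcl1 alone had an unadjusted p value under 0.05 in the quasi-likelihood test, among 736 genes higher in mito-supplemented samples (5.31% of those tested), and 0 of the 10 were among the 333 genes lower (2.4%). In the likelihood ratio test it was Chek2 alone that had an unadjusted p value under 0.05 (9.205% of all genes tested had), in limma-voom Mcl1 alone (10.3%), and in DESeq2 Chek2, Trp63 and Mcl1 (10.8%). In log2 CPM, the ranges of the groups overlapped for each of the 10, while they did not for 698 genes tested (5.03%). The fold change was above 0 for 5 members and below 0 for 5, while it was above 0 for 44.9% of all genes tested, and the median of the members on the log2 scale was -0.23, beside -0.098 over all genes tested. Over all alternatives that median of the members ran from -0.59 to 0.22. The libraries of a group were far apart, with a median standard deviation of 1.17 log2 CPM over the 10 genes and 0.933 over all genes tested.

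**Figure D1:**
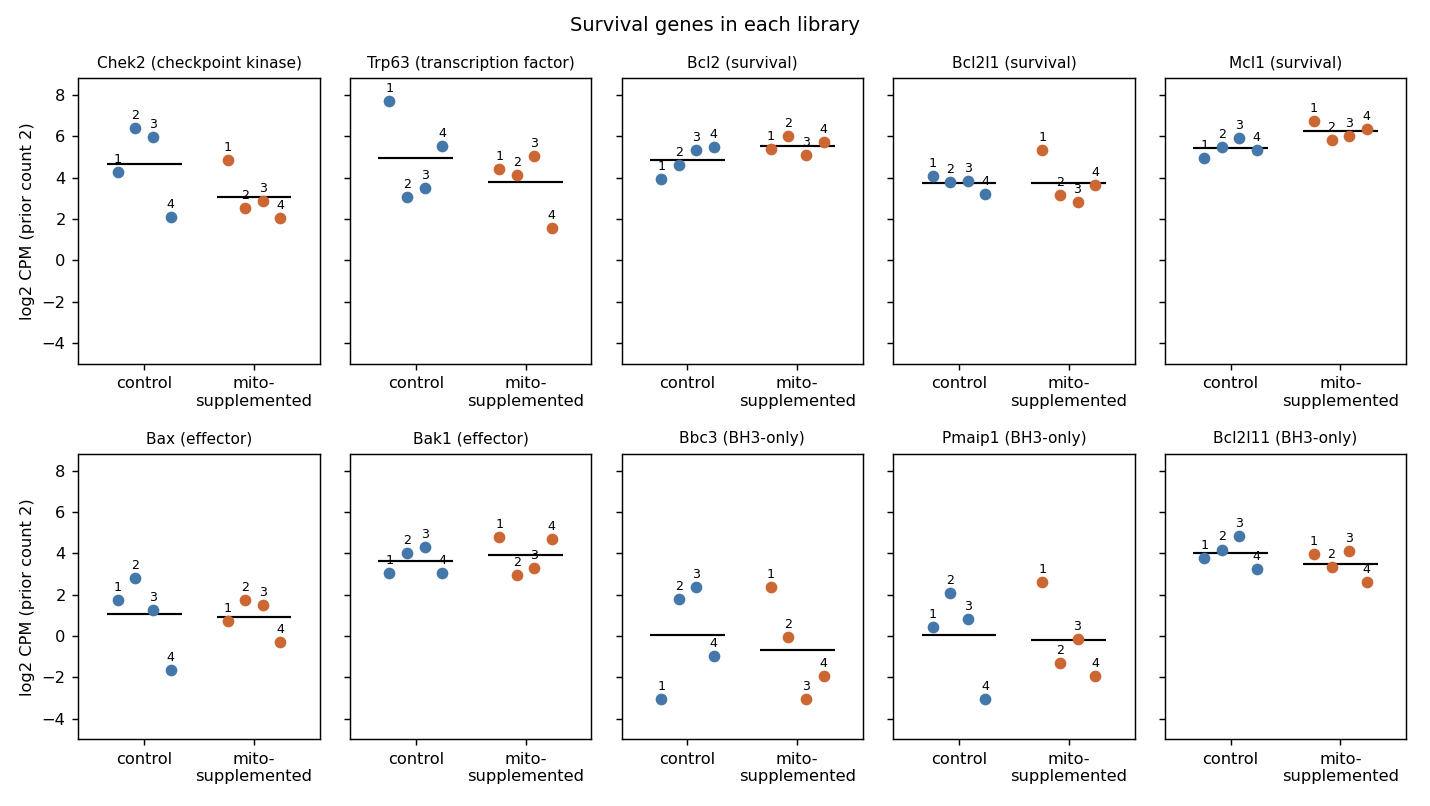
Each point is the level of a gene in 1 library, in log2 CPM with a prior count of 2, numbered by replicate, and the black lines are the means of 4 libraries. In every panel the control (blue) and mito-supplemented (orange) points overlap, and Trp63, Pmaip1 and Bbc3 span the widest ranges.

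Trp63 (chromosome 16 of GRCm38, 25683763 to 25892102, plus strand) had 209, 8.17, 11.2 and 45.6 CPM in control replicates 1 to 4 against 21.2, 17.4, 33.0 and 2.85 CPM in mito-supplemented replicates 1 to 4. Control replicate 1 lay far above every other library and mito-supplemented replicate 4 below, and the other libraries of both groups were interleaved. The highest library held 73.2 times the lowest. Controls averaged 68.4 ± 95.0 CPM (SD, n = 4) and mito-supplemented samples 18.6 ± 12.4 CPM (SD, n = 4), and edgeR's log2 fold change was -1.88 with a standard error of 1.03 (quasi-likelihood adjusted p = 0.679). In an exact permutation test over libraries, two-sided, p was 0.457. The value depended on which libraries were used: leaving out control replicate 1 gave a log2 fold change of -0.18, and leaving out control replicates 1 and 4 together gave 0.94. Leaving out the 3 libraries richest in red cell markers gave -2.80 with a standard error of 0.92, where the unadjusted p was under 0.05 and edgeR's adjusted p was 0.418, in a range from 0.418 to 0.971 over all alternatives. Both sets of libraries were chosen after the values were seen, and without control replicate 2 the unadjusted p was also under 0.05. The counts are per gene and do not separate the TAp63 form of oocytes from the deltaN form of basal epithelium. Krt5, a basal epithelial keratin looked up after these values were seen, had 0 counts in every library, and Krt14, another, had 7 counts in control replicate 2 against 8 and 7 in mito-supplemented replicates 2 and 3 and 0 in the other libraries.

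Trp63 moved with the markers of the oocyte. Of 20 oocyte markers 17 were tested and 0 called, and all 17 had a log2 fold change below 0, where 44.9% of all genes tested were above 0, with a median of -1.70. That median rested on control replicate 1: it was 0.22 without this library, and over all alternatives it ran from -2.39 without the 3 libraries richest in red cell markers to 1.33 without control replicates 1 and 4. Their summed level was 4639, 238, 231 and 836 CPM in control replicates 1 to 4 against 382, 264, 998.6 and 155 CPM in mito-supplemented replicates 1 to 4. Their most abundant gene, Nlrp5, a maternal protein of the oocyte cortex, ranged from 18.4 CPM in mito-supplemented replicate 4 to 1392 CPM in control replicate 1, so every library held oocyte transcripts, in very different amounts. Of the markers not tested, Bmp15 had 0 counts in 3 libraries, Oosp1 in 6 and Stra8, a gene of meiotic entry, in 7. Over the 8 libraries Trp63 and the mean log2 CPM of the oocyte markers had a Pearson r of 0.968 and a Spearman rho of 0.952, given as a description among 130 such pairs of a gene and a list. Without control replicate 1 and mito-supplemented replicate 3, the libraries farthest from the median of the markers, r was 0.961 over 6 libraries. Both groups are pooled in these values, and no correlation within groups was computed.

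Taken as a share of these markers, Trp63 had close means in both groups. Trp63 amounted to 4.50%, 3.43%, 4.83% and 5.45% of the summed oocyte marker level in control replicates 1 to 4 against 5.55%, 6.59%, 3.30% and 1.83% in mito-supplemented replicates 1 to 4. The lowest and the highest share were both in mito-supplemented samples and the controls lay between them. The mean share was 4.55 ± 0.846% in controls (SD, n = 4) and 4.32 ± 2.15% in mito-supplemented samples (SD, n = 4), and its highest value was 3.59 times its lowest. With the mean of the oocyte markers as a covariate, the log2 fold change of Trp63 was -0.24 with a standard error of 0.39 (edgeR quasi-likelihood adjusted p = 0.897, within the range of alternatives given above). In bulk samples, fewer oocytes and less RNA per oocyte cannot be told apart. Both this share and the covariate were chosen after the values were seen.

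Chek2 (chromosome 5, 110839979 to 110874145, plus strand) had 19.4, 83.4, 62.6 and 4.14 CPM in control replicates 1 to 4 against 28.4, 5.75, 7.21 and 4.03 CPM in mito-supplemented replicates 1 to 4. It was highest in control replicates 2 and 3 and, within its own group, in mito-supplemented replicate 1, while control replicate 4 lay among the low mito-supplemented libraries. Controls averaged 42.4 ± 36.9 CPM (SD, n = 4) and mito-supplemented samples 11.4 ± 11.46 CPM (SD, n = 4), and edgeR's log2 fold change was -1.90 with a standard error of 0.90 (quasi-likelihood adjusted p = 0.655). The exact permutation test over libraries, two-sided, gave p = 0.229. Without mito-supplemented replicate 1 the log2 fold change was -2.89 (adjusted p = 0.256 from the same edgeR test, in a range from 0.209 to 0.971 over all alternatives).

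The 3 libraries with the highest Chek2 also held the most red cell markers. Of 10 red cell markers 8 were listed and 5 tested, 0 were called, and their median log2 fold change was -0.47, or 0.41 without control replicate 2, in a range over all alternatives from -5.68 when mito-supplemented replicate 1 was omitted to 0.995 when these 3 libraries were. Their summed level was 14.1, 4160, 2808 and 43.2 CPM in control replicates 1 to 4 against 5071, 81.7, 22.004 and 20.8 CPM in mito-supplemented replicates 1 to 4. The most abundant was Slc4a1, the anion exchanger of the red cell membrane, with 2504 and 1704 CPM in control replicates 2 and 3 and 2998 CPM in mito-supplemented replicate 1. The globin genes, which define red cells, had too few counts to be tested. Hba-a1 had 0 counts in 7 libraries, and Hba-a2 and Beta-s had at most 106 and 96 counts in any library. How multi-mapping reads were counted is not given, so these counts need not reflect the level of globin RNA. Control replicate 1, with few red cell markers, had 19.4 CPM of Chek2, so the levels were not in the same order throughout.

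The summed immune markers were highest in the same 3 libraries, through Lyz2, Itgam and Ptprc but not through every marker. Of 11 immune markers 8 were tested and 0 called, with a median log2 fold change of 0.90 that was -1.97 without mito-supplemented replicate 1 and 1.35 with control replicate 3 omitted, and with a summed level of 20.2, 188, 159 and 25.1 CPM in control replicates 1 to 4 against 1020, 13.0, 20.8 and 12.2 CPM in mito-supplemented replicates 1 to 4. The most abundant was Lyz2, the lysozyme of macrophages and neutrophils, with 638 CPM in mito-supplemented replicate 1, and C1qb had 0 counts in every library. Cx3cr1, a receptor of microglia and macrophages, was at 0.872, 0.229 and 0.437 CPM in control replicates 2 and 3 and mito-supplemented replicate 1 but at 1.805 CPM in control replicate 1 and 3.06 CPM in mito-supplemented replicate 4. Cd68, a macrophage lysosome marker, was at 5.23 and 4.40 CPM in control replicates 2 and 3 and at 1.504 CPM in mito-supplemented replicate 1 but at 4.67 and 4.73 CPM in mito-supplemented replicates 3 and 4, and these genes were named after their values were seen. With those 3 libraries left out together, the log2 fold change of Chek2 was -1.03 with a standard error of 0.87 (edgeR quasi-likelihood adjusted p = 0.699), and with the mean of the red cell markers as a covariate it was -1.50 (standard error 0.52, adjusted p = 0.354). These alternatives were chosen after the values were seen, and the part of red or immune cells in the Chek2 level was not tested further.

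Chek2 was low where markers of the follicle's somatic cells and of the ovarian surface were high. Over the 8 libraries, its Pearson r was -0.909 with the mean of the pregranulosa markers (Spearman rho -0.857), and -0.795 over 6 libraries without control replicates 2 and 3. With the smooth muscle markers r was -0.901 (rho -0.976), and -0.969 without mito-supplemented replicate 4 and control replicate 4. With the surface epithelium markers r was -0.887 (rho -0.738), and -0.632 without control replicates 2 and 3. In each case the libraries left out were those farthest from the median of the markers. These values pool both groups. Chek2 had the lower mean in mito-supplemented samples and each of these lists a median log2 fold change above 0. The r values are thus not free of the difference between groups, and no correlation within groups was computed. Pmaip1 and Bcl2l11 also ran against the smooth muscle markers, with r of -0.868 (rho -0.881) and -0.852 (rho -0.833), or -0.785 and -0.545 over the 6 libraries. For the red cell and immune lists no r is given, since 3 libraries lie apart from the other 5 in both. Chek2, Bbc3 and Pmaip1 were each highest in those 3, and a relation beyond this split was not tested. These relations were picked after the values were seen, from the same 130 pairs, and the part of these cells in the results was not tested.

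**Figure D2:**
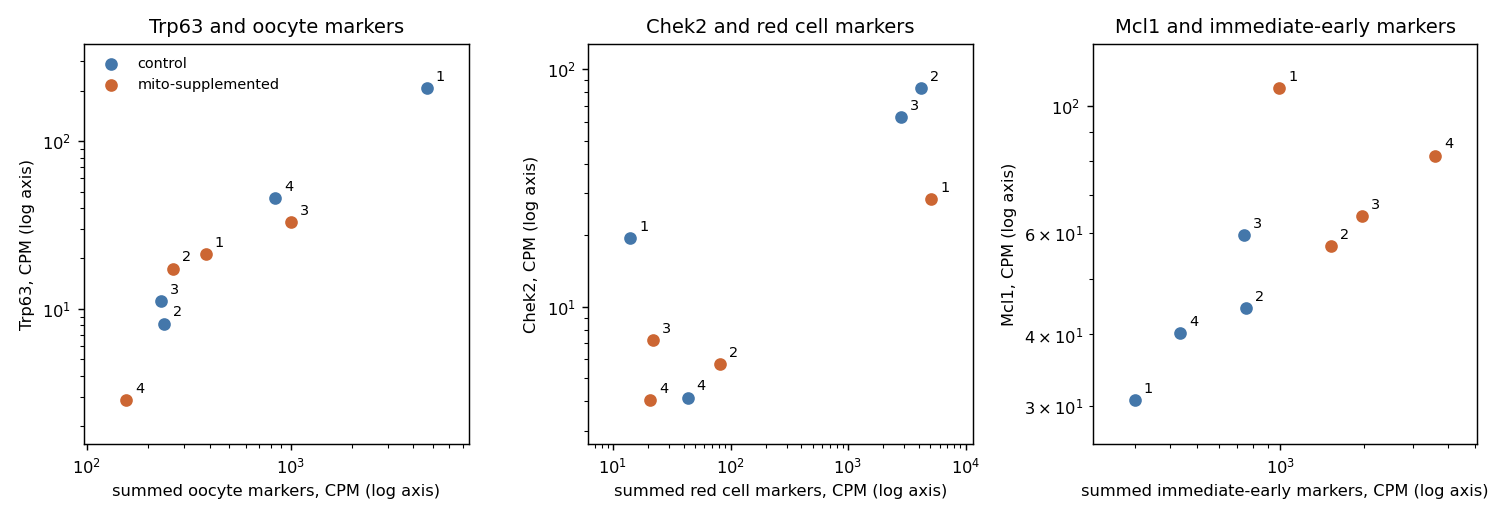
Each point is a library, numbered by replicate, with the level of a gene in CPM on the vertical axis and the summed CPM of a marker list on the horizontal axis, both on log scales. Trp63 follows the oocyte markers from 2.85 to 209 CPM, Chek2 is high in the 3 libraries with the most red cell markers, and Mcl1 is plotted against the immediate-early genes.

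Mcl1 was the survival gene with the most separated groups. Mcl1 (chromosome 3, 95658788 to 95663176, plus strand), whose short-lived protein holds BAK in check, had 30.7, 44.5, 59.5 and 40.3 CPM in control replicates 1 to 4 against 107, 56.9, 64.2 and 81.9 CPM in mito-supplemented replicates 1 to 4. All mito-supplemented libraries but replicate 2 lay above all controls, and replicate 2 lay just under control replicate 3. Controls averaged 43.7 ± 11.97 CPM (SD, n = 4) and mito-supplemented samples 77.6 ± 22.5 CPM (SD, n = 4), and edgeR's log2 fold change was 0.83 with a standard error of 0.35 (quasi-likelihood adjusted p = 0.636). The unadjusted p value from edgeR was 0.0391, which placed Mcl1 at rank 833 of the genes tested, and the exact permutation test over libraries, two-sided, gave p = 0.0571. When single libraries were omitted, its log2 fold change lay between 0.65 and 1.01. Its unadjusted p value from edgeR stayed under 0.05 without control replicate 3 or mito-supplemented replicate 2 or 3. It did not without control replicate 1, 2 or 4 or mito-supplemented replicate 1 or 4. Nor did it with the replicate number as a block or with counts summed by the beginning of the label code.

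Mcl1 is itself a fast-responding gene, and the immediate-early genes, which cells switch on within minutes of a stimulus, also had higher values in mito-supplemented samples. Of 22 such genes 20 were tested, of which 0 were called in the quasi-likelihood test and 6 in the likelihood ratio test, which called 0.418% of all genes tested. These 6 were Egr1 and, named after their values were seen, Fos, Fosb, Atf3, Zfp36 and Ptgs2. A log2 fold change above 0 was found for 18 of the 20, beside 44.9% of all genes tested, with a median of 1.54, in a range from 1.05 to 2.72 over all alternatives. The summed level of these genes was 299, 749.7, 739 and 436 CPM in control replicates 1 to 4 against 991, 1526, 1973 and 3614 CPM in mito-supplemented replicates 1 to 4, with Egr1 the most abundant. Over the 8 libraries Mcl1 and the mean of these genes had a Pearson r of 0.776 and a Spearman rho of 0.810, and without mito-supplemented replicate 4 and control replicate 1 the r was 0.615 over 6 libraries. Mito-supplemented replicate 1 had the highest Mcl1 and the lowest immediate-early sum of its group. Both measures had the higher mean in mito-supplemented samples, and no correlation within groups was computed. The part of the immediate-early genes in the Mcl1 level was not tested.

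Bcl2 (chromosome 1, 106538178 to 106714274, minus strand), the founding survival gene of the family, had 15.2, 24.3, 39.7 and 44.6 CPM in control replicates 1 to 4 against 41.3, 65.1, 34.3 and 52.4 CPM in mito-supplemented replicates 1 to 4. The upper controls and the lower mito-supplemented libraries shared a range. Controls averaged 31.0 ± 13.6 CPM (SD, n = 4) and mito-supplemented samples 48.3 ± 13.5 CPM (SD, n = 4), and edgeR's log2 fold change was 0.64 with a standard error of 0.42 (quasi-likelihood adjusted p = 0.711). The exact permutation test over libraries, two-sided, gave p = 0.143. An antisense gene, D630008O14Rik, overlaps 6.09% of its exon bases, and since the strand setting of the counting is not given, reads there could belong to either gene.

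Bcl2l1 (chromosome 2, 152780668 to 152831728, minus strand), which encodes BCL-xL, had 16.9, 13.6, 13.95 and 9.08 CPM in control replicates 1 to 4 against 40.9, 8.93, 6.85 and 12.4 CPM in mito-supplemented replicates 1 to 4. Mito-supplemented replicate 1 was the highest library, and the other mito-supplemented libraries all lay below the 3 upper controls. Its log2 fold change was 0.37 with a standard error of 0.60 (edgeR quasi-likelihood adjusted p = 0.864), and the exact permutation test over libraries, two-sided, gave p = 1. Without mito-supplemented replicate 1 the log2 fold change was -0.48. That library also held the most red cell and immune markers, and the part of these cells in the value was not tested.

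Bax (chromosome 7, 45461697 to 45466898, minus strand), the effector that moves from the cytosol to mitochondria, was measured on few reads. It had 79, 87, 40 and 1 counts in control replicates 1 to 4 against 32, 46, 59 and 10 counts in mito-supplemented replicates 1 to 4. These corresponded to 3.24, 6.90, 2.29 and 0.197 CPM in controls, and to 1.55, 3.19, 2.68 and 0.695 CPM in mito-supplemented samples. The 1 count of control replicate 4 has an exact 95% Poisson interval of 0.004997 to 1.10 CPM, which covers counting error only. Control replicate 2 was the highest library and control replicate 4 the lowest, so that the mito-supplemented range lay within that of the controls. The log2 fold change was -0.65 with a standard error of 0.97 (edgeR quasi-likelihood adjusted p = 0.851), the exact permutation test over libraries, two-sided, gave p = 0.943, and without control replicate 2 the log2 fold change was 0.062, while without control replicates 1 and 4 it was -1.17. Gm45808, a gene model on the same strand, shares 12.2% of the exon bases of Bax. The count table holds no row of that symbol, and the annotation used for the counting is not given in the sources used here.

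Bak1 (chromosome 17, 27019810 to 27029009, minus strand), the effector that resides in the mitochondrial membrane, had 8.16, 16.3, 19.4 and 8.29 CPM in control replicates 1 to 4 against 27.9, 7.55, 9.80 and 25.8 CPM in mito-supplemented replicates 1 to 4. The mito-supplemented libraries fell into a pair above all controls and a pair at the level of the lower controls. For Bak1 the log2 fold change was 0.45 with a standard error of 0.56 (edgeR quasi-likelihood adjusted p = 0.827), and the exact permutation test over libraries, two-sided, gave p = 0.571. Omitting mito-supplemented replicate 1 gave 0.16, and omitting control replicates 1 and 4 gave -0.0058, while omitting the 3 libraries rich in red cell markers gave 0.82. Ggnbp1, on the opposite strand, overlaps up to 18.2% of its exon bases, so reads there are uncertain as well.

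Of the BH3-only genes, Bcl2l11 was read well in every library, while the p63 targets Bbc3 and Pmaip1 had 4 or fewer counts in 4 and 3 libraries and up to 103 and 125 in the others. Bcl2l11 (chromosome 2, 128126038 to 128162547, plus strand), which encodes BIM, had 13.7, 18.1, 28.5 and 9.28 CPM in control replicates 1 to 4 against 15.5, 10.04, 17.0 and 5.98 CPM in mito-supplemented replicates 1 to 4. Control replicate 3 was the highest and mito-supplemented replicate 4 the lowest, with the others interleaved. For Bcl2l11 the log2 fold change was -0.52 with a standard error of 0.51 (edgeR quasi-likelihood adjusted p = 0.785), and the exact permutation test over libraries, two-sided, gave p = 0.371. Omitting control replicate 3 gave -0.17, and omitting the 3 libraries rich in red cell markers gave -0.036, while omitting control replicates 1 and 4 gave -0.94.

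Bbc3 (chromosome 7, 16308393 to 16318205, plus strand) had 0, 42, 88 and 2 counts in control replicates 1 to 4 against 103, 12, 0 and 2 counts in mito-supplemented replicates 1 to 4. In CPM these were 0, 3.33, 5.03 and 0.395 in controls, and 4.998, 0.831, 0 and 0.139 in mito-supplemented samples. The 3 libraries with most Bbc3 were control replicates 2 and 3 and mito-supplemented replicate 1, the same that were rich in red cell and immune markers. A count of 0 allows up to 0.123 CPM in control replicate 1 and 0.136 CPM in mito-supplemented replicate 3, taking 3 counts as the upper limit. In control replicate 1, the library with the most oocyte markers and the most Trp63, Bbc3 was therefore not detectable at this depth. Its log2 fold change was -0.56 with a standard error of 1.71 (edgeR quasi-likelihood adjusted p = 0.927), and the exact permutation test over libraries, two-sided, gave p = 0.686. Omitting mito-supplemented replicate 1 gave a log2 fold change of -2.76, while omitting control replicate 3 gave 0.26.

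Pmaip1 (chromosome 18, 66458533 to 66465565, plus strand) had 30, 51, 29 and 0 counts in control replicates 1 to 4 against 125, 4, 17 and 2 counts in mito-supplemented replicates 1 to 4. In CPM these were 1.23, 4.04, 1.66 and 0 in controls, and 6.07, 0.277, 0.771 and 0.139 in mito-supplemented samples. Mito-supplemented replicate 1 was the highest library and the other mito-supplemented libraries lay below control replicates 1 to 3. The log2 fold change was 0.054 with a standard error of 1.38 (edgeR quasi-likelihood adjusted p = 0.993), and the exact permutation test over libraries, two-sided, gave p = 0.857. The 3 libraries with most Pmaip1 were the same as for Bbc3, those rich in red cell and immune markers. Its value turned with single libraries, to -2.09 when mito-supplemented replicate 1 was omitted and to 0.87 when control replicate 2 was. The 0 of control replicate 4 allows up to 0.592 CPM.

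**Figure D3:**
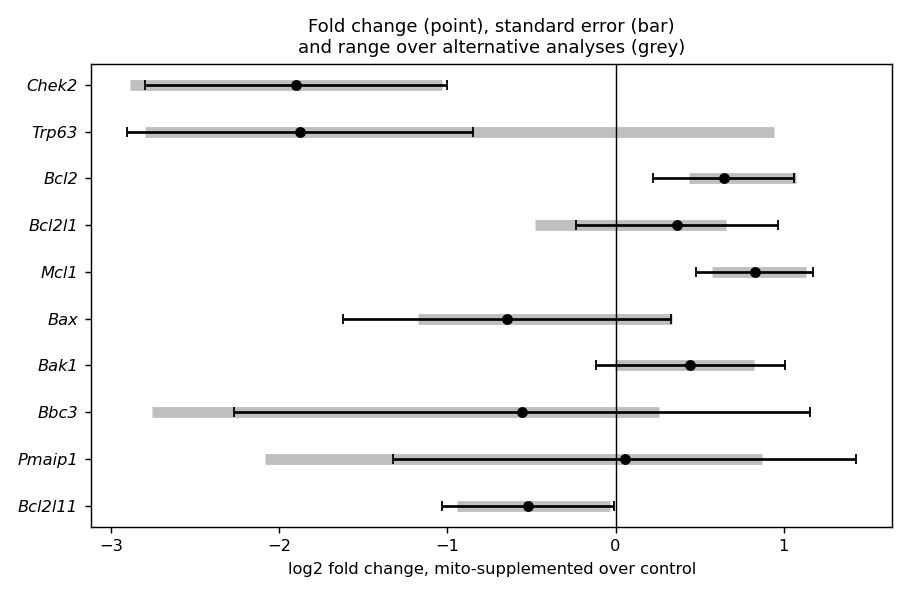
For each gene the point is the log2 fold change of mito-supplemented over control samples from edgeR's quasi-likelihood test, the bar its standard error, and the grey band the lowest to highest value over the alternative analyses. The bands of Chek2, Bcl2, Mcl1 and Bcl2l11 keep to one side of 0, and those of the other 6 genes cross it.

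To compare the genes with each other, CPM was divided by exon length in kilobases, taken over all annotated exons of a gene. Mcl1 was the highest, with a median of 17.0 CPM per kb over the 8 libraries, and lay above Bak1, the next, in 8 of 8 libraries. It was not the highest in every library: Chek2 was at 27.8 and 20.8 CPM per kb in control replicates 2 and 3, where Mcl1 was at 13.01 and 17.4, and Trp63 at 24.9 in control replicate 1, where Mcl1 was at 8.99. Over the controls Chek2 averaged 14.1 ± 12.3 CPM per kb and Mcl1 12.8 ± 3.50 (SD, n = 4), a difference within their spread. Bak1 (median 5.41), Chek2 (4.43), Bcl2 (4.43), Bcl2l1 (2.84), Trp63 (2.30), Bcl2l11 (1.82) and Bax (1.57) followed in this order of CPM per kb. Each neighbour of this middle group lay above the next in only 4 or 5 of 8 libraries, so the order of neighbours was within the spread, but Bak1 lay above both Bcl2l11 and Bax in 8 of 8 libraries, and Chek2 above Bcl2l11 in 8 of 8. Bax lay above Pmaip1 (median 0.366 CPM per kb) in 7 of 8 libraries, and Pmaip1 and Bbc3 (0.289) were the lowest. Pmaip1 was above Bbc3 in only 2 of 8 libraries, against the order of their medians, so these neighbours did not differ beyond their spread. Trp63 went down to 0.340 CPM per kb in mito-supplemented replicate 4. Levels of genes with long annotated ends that these cells may not use, such as Bcl2, Trp63 and Bcl2l11, can be understated on this scale.

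The balance of an effector against a survival gene can be read within each library, without scaling between libraries. The log2 ratio of Bax to Bcl2 in CPM per kb was 0.35, 0.74, -1.51 and -4.59 in control replicates 1 to 4 against -2.09, -1.76, -1.08 and -3.47 in mito-supplemented replicates 1 to 4. Bax was above Bcl2 in 2 libraries, both controls, and the value of control replicate 4 rests on 1 Bax count and the prior count of 2. The mean ratio was -1.25 ± 2.43 in controls (SD, n = 4) and -2.10 ± 1.004 in mito-supplemented samples (SD, n = 4), a difference of -0.85 that was smaller than the spread within controls. The difference became -0.18 when control replicate 2 was omitted and -1.96 when control replicate 4 was.

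The log2 ratio of Bax to Mcl1 was below 0 in every library, from -5.86 in control replicate 4 to -1.55 in control replicate 2, with a mean of -3.25 ± 1.93 in controls (SD, n = 4) and -4.20 ± 1.203 in mito-supplemented samples (SD, n = 4). The value of control replicate 4 again rests on 1 Bax count. The difference of -0.95 became -0.39 when control replicate 2 was omitted, -0.51 when mito-supplemented replicate 4 was and -1.82 when control replicate 4 was. The log2 ratio of Bak1 to Bcl2l1 was -0.11, 1.19, 1.40 and 0.80 in control replicates 1 to 4 against 0.38, 0.69, 1.44 and 1.97 in mito-supplemented replicates 1 to 4. Bak1 thus lay above Bcl2l1 per kilobase in all libraries but control replicate 1. The mean was 0.82 ± 0.67 in controls (SD, n = 4) and 1.12 ± 0.72 in mito-supplemented samples (SD, n = 4), closer together than the libraries of either group, and the difference was -0.0088 without control replicate 1.

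**Figure D4:**
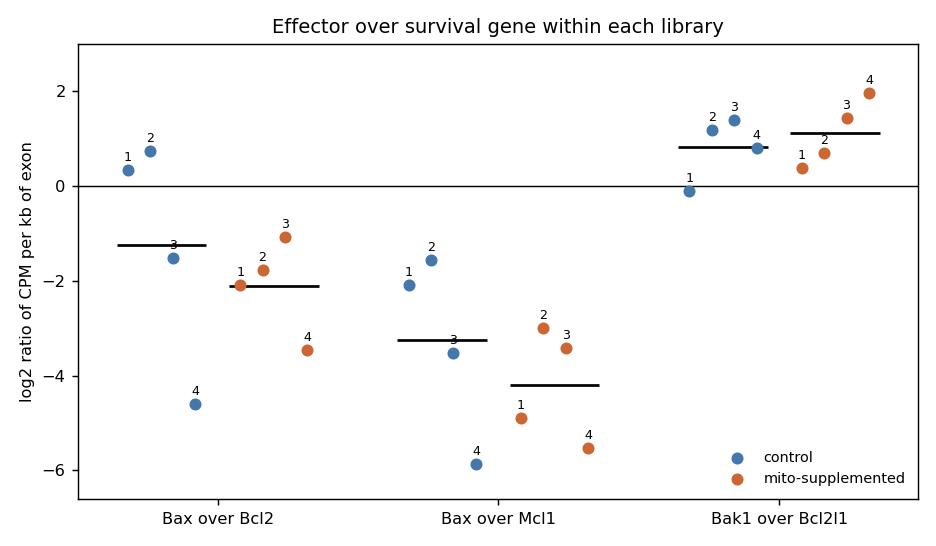
Each point is the log2 ratio of an effector to a survival gene in 1 library, in CPM per kb of exon, numbered by replicate, and black lines are means of 4 libraries. Points above 0 hold more of the effector, and control and mito-supplemented points overlap for each ratio.

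The rest of the BCL2 family was split evenly in direction. Of 17 further family genes 10 were tested and 0 called by the quasi-likelihood or likelihood ratio test, with 5 above and 5 below 0 and a median log2 fold change of -0.31 beside -0.098 over all genes tested, in a range from -0.96 to 0.13 over all alternatives. Bad, a BH3-only gene whose protein is held inactive by growth factor signalling, had 1.15, 2.54, 2.40 and 4.34 CPM in control replicates 1 to 4 against 5.73, 8.59, 5.67 and 18.4 CPM in mito-supplemented replicates 1 to 4. Each mito-supplemented library lay above each control, and Bad was the 1 gene of the list without overlap, beside 5.03% of all genes tested. Its log2 fold change was 1.89 with a standard error of 0.68 (edgeR quasi-likelihood adjusted p = 0.626), and the exact permutation test over libraries, two-sided, gave p = 0.0286, the smallest that 4 libraries against 4 allow. Groups without overlap always give this p, and Bad was named for the lowest unadjusted p of its list, so it adds no support.

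Bid, which caspase-8 cleaves to reach mitochondria, averaged 11.4 ± 7.37 CPM over the controls and 4.68 ± 3.76 CPM over the mito-supplemented libraries (SD, n = 4 each, log2 fold change -1.29, standard error 0.87). Bnip3 averaged 7.03 ± 6.09 and 2.94 ± 1.65 CPM (log2 fold change -1.25, standard error 0.81). Bnip3l, a mitophagy receptor that red cell precursors use to clear mitochondria, averaged 195 ± 71.8 and 197 ± 169 CPM (log2 fold change 0.016, standard error 0.54), and was highest in mito-supplemented replicate 1 at 449 CPM. Bcl2l13 averaged 50.6 ± 45.6 and 25.3 ± 22.1 CPM (log2 fold change -0.998, standard error 0.84), highest in control replicates 2 and 3 and mito-supplemented replicate 1. Bcl2l10, a family member known from the ovary and named here after its values were seen, was too low to be tested, with 56, 0, 24 and 2 counts in control replicates 1 to 4 against 1, 3, 9 and 0 counts in mito-supplemented replicates 1 to 4.

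Most genes of the checkpoint and p53 family list had lower values in mito-supplemented samples. Beside checkpoint kinases it holds regulators of p53, such as Mdm2 (log2 fold change -0.71) and Mdm4 (-0.68), named after their values were seen. The median of the list therefore does not describe the step above p63 alone. Of 24 checkpoint and p53 family genes 23 were tested and 0 called by the quasi-likelihood or likelihood ratio test. Of these 20 had a log2 fold change below 0, 4 of them at an unadjusted p value under 0.05, and the median was -0.71, beside -0.098 over all genes tested. Over all genes tested, 44.9% were above 0 and 2.4% were lower at an unadjusted p value under 0.05. Over all alternatives this median ran from -0.996 to -0.47, with -0.59 without control replicate 1 and -0.65 with the oocyte covariate. Rad50, of the complex that binds broken DNA ends, had 556, 252, 235 and 325 CPM in control replicates 1 to 4 against 205, 168, 201 and 103 CPM in mito-supplemented replicates 1 to 4. Each mito-supplemented library lay below each control, which was so for 2 genes of the list, Rad50 and the clamp subunit Hus1, the latter named after its values were seen, beside 5.03% of all genes tested in either direction. Rad50 was highest in control replicate 1, the library with the most oocyte markers, as was the summed level of the list, and the part of the oocytes in these levels was not tested further. The log2 fold change of Rad50 was -1.02 with a standard error of 0.38 (edgeR quasi-likelihood adjusted p = 0.626), and the exact permutation test over libraries, two-sided, gave p = 0.0286, the smallest possible. That value follows from the lack of overlap, and Rad50 was named for the lowest unadjusted p of its list, so it adds no support.

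Prkdc, the DNA-dependent kinase, averaged 173 ± 65.0 CPM over the controls and 80.7 ± 35.6 CPM over the mito-supplemented libraries (SD, n = 4 each, log2 fold change -1.10, standard error 0.44). Mre11a, the nuclease of the Rad50 complex, averaged 47.1 ± 16.3 and 22.9 ± 9.34 CPM (log2 fold change -1.04, standard error 0.42). Usp7, which removes ubiquitin from MDM2 and p53, averaged 500.5 ± 208 and 279 ± 178 CPM (log2 fold change -0.84, standard error 0.48). Usp7 was highest in the 3 libraries rich in red cell markers, with 731 and 589.8 CPM in control replicates 2 and 3 and 546 CPM in mito-supplemented replicate 1, against 184 to 201 CPM in the other mito-supplemented libraries. Prkdc and Mre11a were also highest in control replicates 2 and 3 and, within their own group, in mito-supplemented replicate 1. With those 3 libraries left out together the median of the list was -0.86, with 21 of 23 below 0, and the part of the cells in single genes was not tested. For Prkdc, Mre11a and Usp7 the groups overlapped, and the adjusted p values from edgeR's quasi-likelihood test were 0.626, 0.634 and 0.681. The summed level of the list was 3094, 2806, 2425 and 1841 CPM in control replicates 1 to 4 against 2226, 1519, 1575 and 1301 CPM in mito-supplemented replicates 1 to 4. Trp53 itself, named for its place in the pathway, averaged 26.0 ± 13.2 and 39.1 ± 14.1 CPM (log2 fold change 0.59, standard error 0.49). Trp73, the remaining p53 relative, was not tested and had at most 12 counts in any library.

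The targets of p53 or p63 outside the BCL2 family were split evenly in direction. The list does not separate targets of p63 from those of p53, and Btg2 was also counted among the immediate-early genes. Of 21 p53 and p63 targets 20 were tested and 0 called in the quasi-likelihood or likelihood ratio test, with 10 above and 10 below 0, 0 at an unadjusted p value under 0.05 and a median of 0.021. This median ran from -0.16 without control replicate 3 to 0.45 without control replicates 1 and 4, where 16 of 21 were above 0. Without control replicate 1 it was 0.43, and with the oocyte covariate 0.34, where 15 of 20 were above 0. Cdkn1a, the cell cycle inhibitor p21, averaged 8.89 ± 6.95 CPM over the controls and 19.0 ± 13.7 CPM over the mito-supplemented libraries (SD, n = 4 each, log2 fold change 1.09, standard error 0.73). Eda2r, a death receptor, averaged 1.43 ± 0.728 and 3.66 ± 2.33 CPM (log2 fold change 1.37, standard error 0.84), and Aen, a nuclease, 9.11 ± 10.1 and 2.42 ± 1.83 CPM (log2 fold change -1.91, standard error 0.98). The most abundant, Sesn1 and Ccng1, had log2 fold changes of 0.13 (standard error 0.33) and -0.090 (standard error 0.39). Over these 5 genes the lowest adjusted p value from edgeR's quasi-likelihood test was 0.667.

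At the end of the pathway, of 21 caspase and apoptosome genes 20 were tested and 0 called in either edgeR test, with 8 above and 12 below 0 and a median of -0.17, which turned to 0.18 when scaled by library size, was 0.014 without control replicate 2 and went down to -0.23 without control replicates 1 and 4. Casp2, a caspase with a known part in oocyte death, had 61.0, 109, 95.7 and 44.4 CPM in control replicates 1 to 4 against 62.6, 24.1, 35.8 and 33.4 CPM in mito-supplemented replicates 1 to 4. All mito-supplemented libraries but replicate 1 lay below all controls, and the 3 highest libraries were those rich in red cell and immune markers, whose part in the Casp2 level was not tested. Its log2 fold change was -0.99 with a standard error of 0.42 (edgeR quasi-likelihood adjusted p = 0.636), and it was the 1 gene of the list with an unadjusted p value under 0.05, beside 2.4% of all genes tested that were lower at that p. Diablo, which frees caspases from their inhibitors, averaged 26.0 ± 11.4 CPM over the controls and 14.6 ± 2.40 CPM over the mito-supplemented libraries (SD, n = 4 each, log2 fold change -0.83, standard error 0.43). Birc5, which also serves cell division, averaged 110 ± 79.9 and 44.9 ± 39.4 CPM (log2 fold change -1.30, standard error 0.70) and was highest in control replicates 2 and 3 and mito-supplemented replicate 1. The inhibitors Birc6 and Xiap, the most abundant of the list, had log2 fold changes of -0.27 (standard error 0.29) and -0.080 (standard error 0.27).

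**Figure D5:**
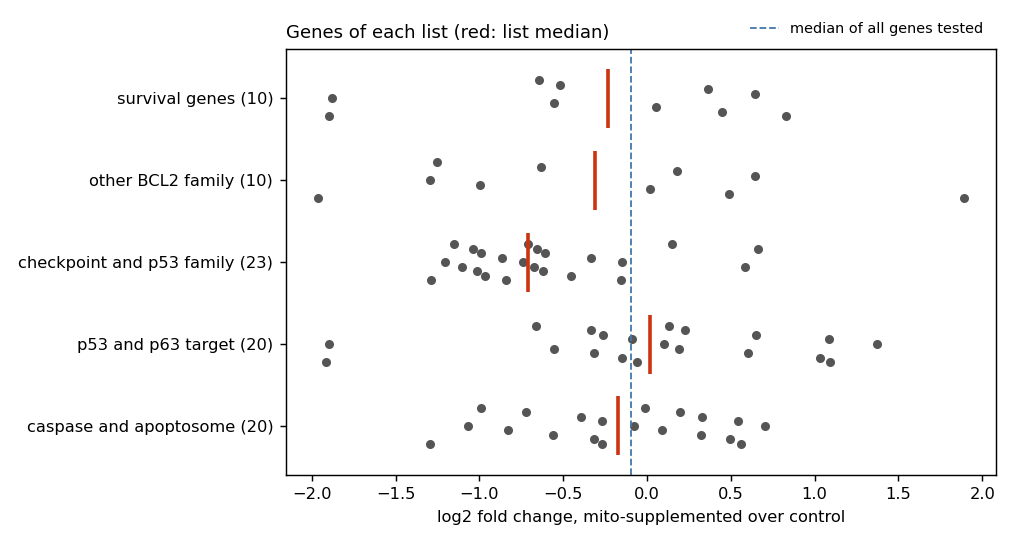
Each point is a gene, placed by its log2 fold change of mito-supplemented over control samples from edgeR's quasi-likelihood test, for the 10 survival genes and the 4 pathway lists, with the number tested in brackets. Red lines are list medians, from -0.71 for the checkpoint list to 0.021 for the p53 and p63 targets, and the dashed line is the median of all genes tested, -0.098, while all these list medians but that of the checkpoint list changed sign in some alternatives.

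Among all genes tested, those whose log2 CPM over the 8 libraries was most like that of Trp63 were Elavl2 (Pearson r = 0.990), Dnajc2 (0.990), Mctp2 (0.989), Smc1b (0.986) and Parl (0.985). Those most like Chek2 were Naa16 (r = 0.995), Sfmbt1 (0.994), Slc20a1 (0.993), Xpo1 (0.992) and Topbp1 (0.991), the last of which is on the checkpoint list. Those most like Mcl1 were Pion (r = 0.948), Hal (0.947), Ctsh (0.941), Casp4 (0.927) and Fgf1 (0.922). Among the 10 survival genes themselves, Chek2 was most alike with Pmaip1 (r = 0.863) and Bcl2l11 (0.818), and Mcl1 with Bak1 (0.735), while Trp63 had an r of -0.42 with Bbc3 and 0.011 with Pmaip1. These values describe 8 libraries that differ in their content of oocyte, red and immune cell markers.

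The remaining cell type lists had a summed level that was mostly higher in mito-supplemented samples. Of 15 pregranulosa markers 13 were tested, 12 of them above 0 (44.9% over all genes tested), with a median log2 fold change of 1.22 and a summed level of 204 to 797 CPM in controls and 506 to 1297 CPM in mito-supplemented samples, Wt1 being the most abundant. All 11 surface epithelium markers were above 0, with a median of 1.89 and summed levels of 42.9 to 421 and 306 to 923 CPM. Aldh1a2 averaged 36.1 CPM over the controls and 117 CPM over the mito-supplemented libraries. Upk3b, named after its values were seen, averaged 32.7 and 132 CPM. Stroma (11 of 12 tested, led by Col3a1) had a median of 0.71 and smooth muscle (7 of 7, led by Myl9) of 0.88 with summed levels of 426 to 2615 against 1049 to 2905 CPM and of 45.5 to 343 against 75.5 to 521 CPM. Endothelial markers (9 of 10, led by Kdr) had a median of 0.29 and summed to 27.4 to 231 against 103 to 228 CPM. Control replicate 4 was the control with the highest summed level of each of these 5 lists, and without it the medians were 1.54 for pregranulosa, 3.09 for surface epithelium, 1.63 for stroma, 2.10 for smooth muscle and 1.56 for endothelial markers. At their lowest over all alternatives the medians were 0.93 for pregranulosa (control replicate 2 omitted), 1.33 for surface epithelium (the 3 libraries rich in red cell markers omitted) and -0.17 for smooth muscle (mito-supplemented replicate 4 omitted). With the red cell covariate they were at their lowest for stroma, 0.32, and endothelial markers, -0.0997. Stroma was at 0.42 and endothelial markers at -0.045 when control replicate 1 was omitted. In the quasi-likelihood test 0 genes of these lists were called, and the likelihood ratio test called 1, Upk1b of the surface epithelium, and 1 endothelial gene, Esam, beside 0.418% of all genes tested, both named after their values were seen. How far these cells contribute to the survival genes was not tested.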

How the data were processed

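Amplified RNA was sequenced by the authors, who trimmed the reads with Trim Galore 0.4.4, mapped them to GRCm38 with STAR 2.5.3a and counted them with featureCounts. The deposited values are raw counts per gene symbol. Annotation, strand setting and multi-mapping are not given in the sources used here, and a further control library that the authors left out was not analysed here. Counts were TMM-normalized and filtered by default in edgeR 4.0.16 (R 4.3.3) and tested across all genes with its quasi-likelihood test and Benjamini-Hochberg adjustment. Standard errors came from the F statistic, and log2 CPM used a prior count of 2. Alternatives used the likelihood ratio test, DESeq2 1.42.0, limma 3.58.1, other scalings and filters, counts summed by the beginning of the label code, and left-out libraries, and list medians under them were added after the data were seen. The fit was tested on simulated data. No library pair agreed within sampling noise (lowest chi-square per degree of freedom 50.0). Named genes were all 10 members, the 3 lowest p values and 2 highest levels of each pathway list with any of its genes past the threshold, the 5 most correlated genes of Trp63, Chek2 and Mcl1, and the top marker of each cell type list. List symbols were matched to older ones through RefSeq (5 genes), and Hbb-bt and Ahsp had no match. Members and lists were chosen with earlier results of these data known.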

Additional observations from a re-analysis of the deposited data

Results flagged for a closer look

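In 4 of 82 groups of 4 libraries, 1 library lay far from the other 3 relative to the whole range, and chance gives about 1 such group in 20. None of the 10 survival genes and none of the 3 ratios was among them. Bid was at -0.13 log2 CPM in control replicate 4, where the other controls lay from 3.64 to 4.10. In mito-supplemented replicate 1, Usp7 was at 9.09 log2 CPM with the others from 7.52 to 7.66, Birc5 at 6.70 with the others from 4.48 to 4.85, and the log2 of the summed immune markers at 9.99 with the others from 3.61 to 4.38.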

How the results depend on the processing

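Across 23 alternatives, 4 of them chosen after seeing the data, 0 of the 10 genes passed the threshold in any, and the lowest adjusted p value of a member was 0.209. The count of genes called was 0 in 21 alternatives, 58 in the likelihood ratio test and 141 in DESeq2. The direction held in all alternatives for Chek2, Bcl2, Mcl1 and Bcl2l11. It turned for Bcl2l1 in limma-voom (-0.055), without the 3 libraries rich in red cell markers (-0.45) and over single libraries left out (-0.48 to 0.66). Bax turned without those 3 libraries (0.34) and over single libraries (-1.004 to 0.062). Bbc3 turned with the oocyte (0.21) and red cell (0.25) covariates and over single libraries (-2.76 to 0.26), and had no value without the 3 libraries or with at least 1 CPM in 4 samples. Without control replicates 1 and 4, Trp63 was at 0.94, Bak1 at -0.0058 and Pmaip1 at -0.64. Pmaip1 was also at -0.62 in limma-voom, -0.30 with counts summed over samples whose label codes begin alike, -0.29 with the red cell covariate, -0.66 without the 3 libraries, and -2.09 to 0.87 over single libraries. The cause was not tested.

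Replicate numbers did not pair the samples: deviations of same-numbered libraries correlated at -0.24, -0.19, -0.33 and 0.22. With the replicate block 0 genes were called, and Pmaip1 was at -0.30. Under library size alone as the scaling, the median over all genes shifted by 0.27 on the log2 scale, Mcl1 was at 1.13 and Bcl2 at 1.08. Under that scaling both had an unadjusted p value under 0.05 in edgeR's quasi-likelihood test, with adjusted p values of 0.443 and 0.469. The ratios moved by less than the SD pooled over both groups, but Bax to Bcl2 without control replicate 4 (-1.96) moved by more than the SD of the mito-supplemented samples. Bax, Bbc3 and Pmaip1 rest on few reads, with 354, 249 and 258 counts in all, and how far depth sets their spread between libraries was not tested.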
